A study of Mus musculus with 6 samples.

Results

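The 33 genes described here code for the machinery of striated muscle: the proteins of the sarcomere, the acetylcholine receptor and calcium channels that couple nerve signals to contraction, and the transcription factors that make muscle cells. They were chosen by gene symbol, and all 33 were measured, each by 1 array feature with that symbol alone, among 19938 genes tested. RNA came from whole bladders of mouse embryos at E14.5, a stage of midgestation, as 3 pools of 2 bladders for each of 2 genotypes. The Klf5-deleted group had the genotype Klf5 ∆/∆, a deletion on both alleles of Klf5, the gene of a zinc-finger transcription factor of epithelia, and the labels do not name the Cre allele behind it. The controls were Klf5+/+ShhGfpCre+, with intact Klf5 and an allele that makes a Cre recombinase in cells expressing Shh, such as bladder epithelium. The labels name the tissue both as bladder urothelium and as whole bladder, and give no litter, strain or sex, so p-values measure only the spread between pools. The title of the study concerns the need for Klf5 as the lining epithelium, the urothelium, matures.

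Striated muscle is built from sarcomeres, in which thick filaments of myosin pull on thin filaments of actin, with troponin on the thin filament as the calcium switch. The embryonic bladder wall contains smooth muscle, which contracts without sarcomeres or troponin, whereas the striated muscle of the lower urinary tract is the sphincter around the urethra. Myogenic transcription factors of the basic helix-loop-helix class bind the DNA element called the E box and switch on sarcomere, receptor and fusion genes together. In RNA of whole organs, fewer cells of a type and less RNA per cell cannot be told apart.

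Levels are log2 values, as deposited, on Affymetrix Mouse Gene 1.0 ST arrays, so a difference of 1 is a 2-fold change. The targeted gene, Klf5, averaged 10.23 ± 0.11 (SD, n = 3) on the Klf5-deleted arrays and 10.81 ± 0.17 (SD, n = 3) on the controls. It differed by -0.59 (limma, adjusted p = 0.0381), and this was 0.137 with the replicate block, 0.061 with median centring, 0.0651 with housekeeping centring and 0.0847 to 0.156 without any 1 array other than control 2. The mean of 12 urothelial genes lay between 9.48 and 9.73 on the Klf5-deleted arrays and between 11.04 and 11.24 on the controls, and that of 18 smooth muscle genes between 11.51 and 11.69 against 11.75 and 12.05. Of all genes tested, 395 passed an adjusted p of 0.05, or 1.98%, with 0.386% higher and 1.59% lower in the Klf5-deleted group.

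Striated muscle transcripts were on average higher in the Klf5-deleted bladders, but varied so much between pools of the same genotype that no member passed the test. Of the 33 members, 32 had a higher mean in the Klf5-deleted group, against 46.5% of all genes. The members moved together over the arrays, with a median r of 0.85 between pairs. Counts of members are therefore not counts of independent observations. The median log2 difference of the members was 0.60, or 0.26 without Klf5-deleted 3, against -0.01 over all genes. With limma, 0 of 33 members passed an adjusted p of 0.05, and the lowest adjusted p was 0.200, for Mylpf. At an unadjusted p of 0.05, 13 members were higher and 0 lower, against 6.34% of all genes that were higher at this level. The array values of the groups did not overlap for 5 members, each higher in the Klf5-deleted group, against 8.67% of all genes in that direction and 20.5% in either. The median standard error (SE) of a member's difference was 0.28, against 0.08 over all genes, and every member's SE lay above that median.

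The counts depended on how the arrays were centred and on single pools. Leaving out Klf5-deleted 3 made the difference of 24 of 33 members smaller by over 1.5 times or turned its sign. When each array was centred on its housekeeping genes, which rests on 1 gene per array, B2m or Pgk1, 20 of 33 members rose, but the median of all genes also moved to 0.20 and 6.88% of all genes rose. In that centring 8.19% of all genes passed in either direction. At an unadjusted p of 0.05, 0 members were higher without control 1 (4.88% of all genes), 3 without control 3 (5.75%), 3 without Klf5-deleted 3 (6.94%) and 4 without Klf5-deleted 2 (5.21%). There were 22 without Klf5-deleted 1 (4.54%), 19 without control 2 (5.09%) and 16 with the replicate block (5.55%). Myl1 without control 2 came nearest the threshold, at an adjusted p of 0.0618 by limma. No member passed in the other 13 alternative fits. Of all genes, 0.552% passed with the replicate block, 2.44% with trended and robust variances, 2.25% with array weights and 1.95% with median centring. The share was 1.79% after a second quantile normalization, 1.99% with the mean of features and 2.4% among the brighter genes. It was 0.707%, 0.863% and 1.27% without Klf5-deleted 1, 2 and 3, and 0.828%, 1.75% and 1.31% without control 1, 2 and 3.

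**Figure D1:**
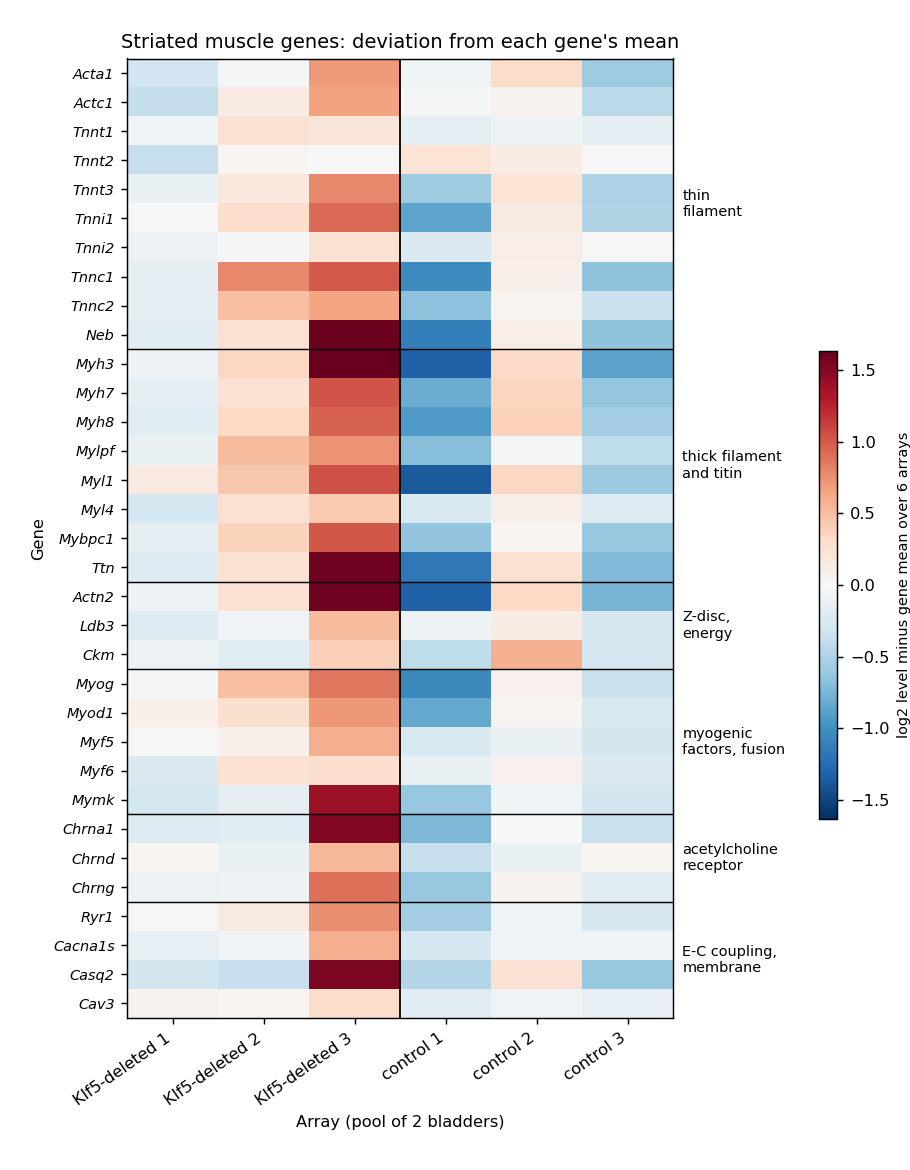
Log2 level of each of the 33 striated muscle genes on each of the 6 arrays, as the difference from that gene's mean over the arrays (colour), with genes in rows by role and arrays in columns by genotype. Klf5-deleted 3 is the highest array for 30 genes and control 1 the lowest for 24, and control 2 stands above the other controls in most rows.

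The members moved together from pool to pool, within each genotype as well as between them. Klf5-deleted 3 held the highest value for 30 of 33 members, and control 1 the lowest for 24. Relative to each gene's own mean over the arrays, the median member was at 0.76 on Klf5-deleted 3, 0.23 on Klf5-deleted 2 and -0.13 on Klf5-deleted 1. The controls read 0.08 on control 2, -0.35 on control 3 and -0.61 on control 1. The arrays of the genotypes were thus interleaved: control 2 exceeded Klf5-deleted 1 for 27 of 33 members.

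Within controls, control 2 exceeded control 1 by a median of 0.67, against -0.02 over all genes. Within the Klf5-deleted group, Klf5-deleted 3 exceeded Klf5-deleted 1 by 0.88, against 0.00 over all genes, and did so for all 33 members. The range of the 3 controls was wider than the genotype difference for 23 members, and the range of the 3 Klf5-deleted arrays for 31. When control 2 was set aside, every Klf5-deleted array lay above both other controls for 24 of 33 members, against 12.3% of all genes; control 2 was singled out here after its values were seen.

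As a description, Pearson's r was computed over the 6 arrays for all 528 pairs of members, which share the same arrays. The median r was 0.85, and 334 pairs, or 63.3%, had an r over 0.8. Among all 4258 genes whose SD over the arrays lay within the members' range, the median r was -0.01 and 7.91% of pairs had an r over 0.8. Such tight co-variation was not particular to the members. Lists of 10 neuron and glia genes and 6 erythroid genes had a median r of 0.85 and 0.86, with 64.4% and 60% of pairs over 0.8. The smooth muscle list had a median r of 0.74 and a list of 12 cardiac genes 0.09. Subtracting each group's mean left the members' median r at 0.86, so the shared variation was not the genotype difference alone. It fell to 0.73 without Klf5-deleted 3, and to 0.74 over the 4 arrays left without Klf5-deleted 3 and control 1. A single axis held 90.9% of the members' variance over the arrays, and 88.6% after the group means were subtracted.

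**Figure D2:**
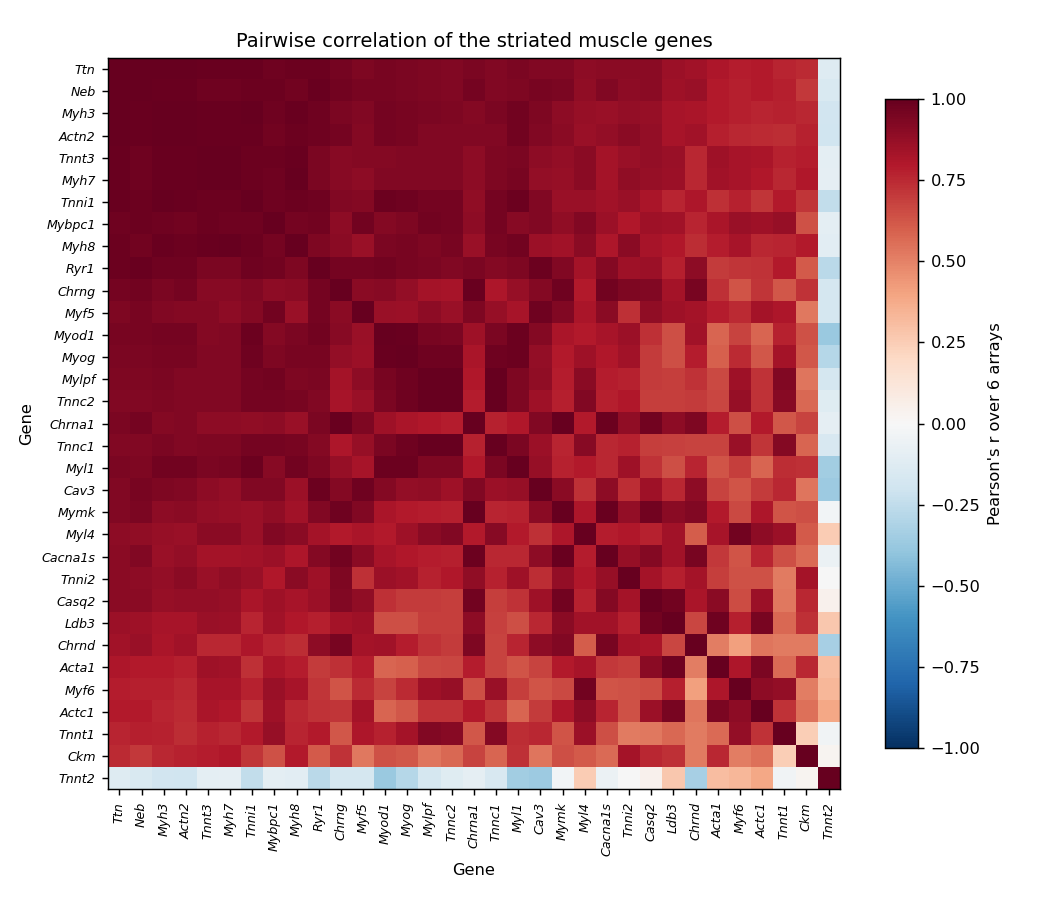
Pearson's r over the 6 arrays between every pair of the 33 striated muscle genes (colour), with genes sorted by their r to the mean of the other members. Ttn stands at one end with an r of 1.00 to that mean and Tnnt2 at the other with -0.12, and each of the 25 pairs with an r below 0 includes Tnnt2.

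Some members tracked the rest far more closely than others. Of the 33 members, 30 had an r over 0.8 to the mean of the others. Ttn reached 1.00, Neb 1.00, Myh3 0.99 and Actn2 0.99. The 3 others were Tnnt1 at 0.78, Ckm at 0.72 and Tnnt2 at -0.12. With group means subtracted these were 0.60, 0.86 and 0.44, so that the sign of Tnnt2 turned, and 28 members were over 0.8. With group means kept, Tnnt2 instead had an r of 0.88 to the mean of the smooth muscle list, to which 29 of the 33 members were negatively related. That list averaged 11.62 in the Klf5-deleted group and 11.90 in controls, a shift opposite to that of most members. Its Klf5-deleted arrays stood in the members' order, at 11.51, 11.65 and 11.69, and its controls did not, at 12.05, 11.90 and 11.75. An r to this list with group means subtracted was not computed.

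Members that neighbour each other in the genome did not always vary together. Tnni1 and Tnnt2 lie on chromosome 1 of GRCm38.p6 with 1 protein-coding gene, Lad1, between them, and had an r of -0.25 over the arrays. Their genotype differences had opposite signs, 0.81 and -0.23, and enter this r. Group means were kept for every pair of neighbours, and r with them subtracted was not computed. Tnnt2 and Cacna1s, with 4 such genes between them, had an r of -0.06. The adjacent receptor genes Chrnd and Chrng had an r of 0.95, the adjacent factor genes Myf5 and Myf6 0.75, and Tnni2 and Tnnt3, separated by Lsp1, 0.86. Myh3 and Myh8, with Myh2, Myh1 and Myh4 between them on chromosome 11, had an r of 0.98.

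Promoter windows from RefSeq (GRCm38.p6, from 250 bases before to 50 after the start) were found for 26 of the 33 members, taking the first window listed for a gene. Each was searched on both strands. The general E box CANNTG was in 22 of 26 windows, against 72.1% of all 27025 windows. Its form CAGCTG, a subset of CANNTG that myogenic factors are known to favour, was in 11 of 26, or 42.3%, against 16.1% of all. The CArG box, the element of serum response factor in actin promoters, was in 3 of 26, the windows of Acta1, Actc1 and Ldb3, against 1.57% of all. The MEF2 site, bound by partners of the myogenic factors, was in 3 of 26, those of Casq2, Myh8 and Ttn, against 3.26%, and TATAAA was in 7 of 26, against 14.2%. These are matches of letters and do not show binding.

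Shown first are the windows of 2 receptor genes that followed the other members, each holding CAGCTG at 2 places, in capitals. Chrna1 is at chr2:73580289-73580588 (minus strand) and Chrng at chr1:87205561-87205860 (plus strand).
Chrna1: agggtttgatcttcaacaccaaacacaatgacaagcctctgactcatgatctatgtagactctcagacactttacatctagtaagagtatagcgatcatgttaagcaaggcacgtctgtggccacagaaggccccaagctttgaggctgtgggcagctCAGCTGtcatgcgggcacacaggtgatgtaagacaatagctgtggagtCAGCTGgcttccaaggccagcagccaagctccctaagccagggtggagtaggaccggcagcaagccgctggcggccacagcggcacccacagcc
Chrng: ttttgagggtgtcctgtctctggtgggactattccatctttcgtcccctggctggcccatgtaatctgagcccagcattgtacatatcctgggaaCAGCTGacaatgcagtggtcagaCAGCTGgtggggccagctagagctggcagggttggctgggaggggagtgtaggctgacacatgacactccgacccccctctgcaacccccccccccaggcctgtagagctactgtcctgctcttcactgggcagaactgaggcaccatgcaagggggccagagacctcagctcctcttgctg

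Next are the windows of the troponin neighbours Tnni1 and Tnnt2, which had genotype differences of opposite sign. Their r to each other was -0.25 with group means kept. CAGCTG, in capitals, occurs 1 time in the window of Tnni1 and 2 times in that of Tnnt2, so the word is present in both. Tnni1 is at chr1:135799171-135799470 (plus strand) and Tnnt2 at chr1:135836084-135836383 (plus strand), and each gene has 2 windows listed.
Tnni1: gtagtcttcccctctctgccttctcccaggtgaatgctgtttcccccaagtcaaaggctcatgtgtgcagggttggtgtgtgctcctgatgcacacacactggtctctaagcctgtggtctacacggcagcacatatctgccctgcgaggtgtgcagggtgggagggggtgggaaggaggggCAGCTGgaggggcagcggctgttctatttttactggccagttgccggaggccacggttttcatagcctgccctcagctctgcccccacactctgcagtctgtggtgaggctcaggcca
Tnnt2: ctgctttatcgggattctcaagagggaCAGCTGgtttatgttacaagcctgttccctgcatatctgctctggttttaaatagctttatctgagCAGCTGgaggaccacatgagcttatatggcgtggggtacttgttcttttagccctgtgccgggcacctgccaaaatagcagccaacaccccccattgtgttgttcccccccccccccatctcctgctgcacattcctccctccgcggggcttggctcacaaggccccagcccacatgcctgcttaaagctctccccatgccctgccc

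The windows that hold the CArG box, in capitals, are those of Acta1, Actc1 and Ldb3, and CAGCTG is also in capitals in that of Acta1. Their log2 differences between genotypes were 0.23, 0.27 and 0.16, below the members' median of 0.60. Members whose window lacks the CArG box were also that low, such as Ckm at 0.07, Tnnt1 at 0.25 and Cav3 at 0.25. A relation of the box to the differences was not tested. Acta1 is at chr8:123894726-123895025 (minus strand), Actc1 at chr2:114052826-114053125 (minus strand) and Ldb3 at chr14:34588632-34588931 (minus strand). Ldb3 has 2 windows listed, and only the first was searched.
Acta1: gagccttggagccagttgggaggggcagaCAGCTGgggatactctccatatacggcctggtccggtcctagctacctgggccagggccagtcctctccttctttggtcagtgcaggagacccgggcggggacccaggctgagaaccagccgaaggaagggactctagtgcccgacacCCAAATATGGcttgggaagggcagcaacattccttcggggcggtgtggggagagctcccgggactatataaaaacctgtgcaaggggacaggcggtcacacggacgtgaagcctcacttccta
Actc1: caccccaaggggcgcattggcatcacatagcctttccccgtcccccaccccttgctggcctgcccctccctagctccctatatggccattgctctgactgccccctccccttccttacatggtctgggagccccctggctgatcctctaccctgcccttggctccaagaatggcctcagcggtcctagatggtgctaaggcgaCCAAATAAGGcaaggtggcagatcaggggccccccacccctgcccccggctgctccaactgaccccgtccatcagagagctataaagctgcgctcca
Ldb3: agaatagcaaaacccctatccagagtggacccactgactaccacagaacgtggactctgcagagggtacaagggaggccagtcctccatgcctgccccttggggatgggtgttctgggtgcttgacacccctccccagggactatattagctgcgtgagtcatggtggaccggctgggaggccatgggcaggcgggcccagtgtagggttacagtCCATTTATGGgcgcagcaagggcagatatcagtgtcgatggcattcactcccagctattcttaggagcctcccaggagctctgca

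Among the thick filament genes, every member was higher on average in the Klf5-deleted bladders and none passed the test. Myh3, the embryonic myosin heavy chain of developing fibres, read 9.52, 9.94 and 11.23 on the Klf5-deleted arrays and 8.27, 9.91 and 8.72 on the controls. Its difference was the largest of the members over all arrays at 1.26, or 2.40-fold (SE 0.53, 95% interval 0.03 to 2.50, adjusted p = 0.335 by limma). Without Klf5-deleted 3 it was 0.76, and Tnnc1 at 0.85 and Myl1 at 0.84 were then larger. Control 2 was level with Klf5-deleted 2 and above Klf5-deleted 1, so the groups overlapped. Myh8, the perinatal heavy chain, read 8.15, 8.66 and 9.30 against 7.41, 8.71 and 7.78. Myh7, the heavy chain of slow and cardiac fibres, read 8.54, 8.93 and 9.73 against 7.89, 9.05 and 8.07. Both had the same order of controls as Myh3, with control 2 above the lower pair of Klf5-deleted arrays. Without Klf5-deleted 3 the difference of Myh8 was 0.44, from 0.74, and that of Myh7 was 0.40, from 0.73. The heavy chain genes are close paralogs, and whether the features separate them was not tested.

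The myosin light chains differed by unequal amounts. Myl1, the alkali light chain of fast fibres, read 10.98, 11.27 and 11.87 on the Klf5-deleted arrays and 9.46, 11.17 and 10.24 on the controls, a difference of 1.08 (SE 0.41, adjusted p = 0.292), or 0.67 without control 1. Mylpf, the regulatory light chain of fast fibres, read 8.23, 8.85 and 9.06 against 7.64, 8.30 and 7.92, a difference of 0.76 (SE 0.24). Myl4, the embryonic and atrial light chain, read 11.28, 11.82 and 12.00 against 11.33, 11.66 and 11.36. Its difference of 0.25 (SE 0.19) was within the spread of the pools, and Klf5-deleted 1 was its lowest array.

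Ttn, the giant spring that spans each sarcomere from Z-disc to M-line, read 8.55, 9.02 and 10.36 on the Klf5-deleted arrays and 7.60, 9.02 and 8.05 on the controls. Mybpc1, the slow myosin binding protein that ties titin to myosin, read 8.004, 8.52 and 9.17 against 7.52, 8.19 and 7.54. Their differences were 1.09 (SE 0.51) and 0.81 (SE 0.30), and 0.56 and 0.51 without Klf5-deleted 3. Control 2 was level with Klf5-deleted 2 in Ttn and between Klf5-deleted 1 and 2 in Mybpc1.

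**Figure D3:**
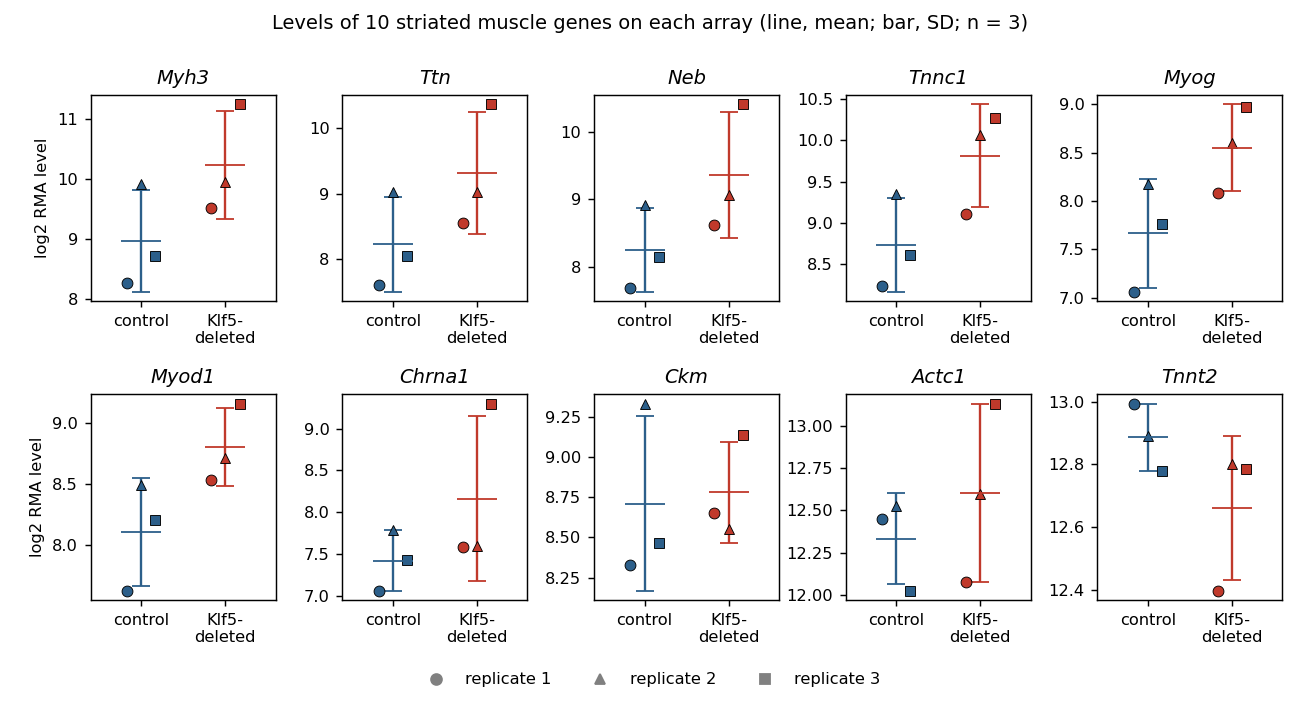
Log2 level of 10 striated muscle genes on each control (blue) and Klf5-deleted (red) array, with the marker shape giving the replicate number, the line the group mean and the bar the SD (n = 3 per group). For Myh3, Ttn, Neb and Tnnc1 control 2 lies above Klf5-deleted 1, Myod1 is the gene without overlap, and for Tnnt2 the control mean is the higher one. The axes differ between genes.

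The thin filament genes covered the widest span of differences, from -0.23 to 1.11, and again none of the 10 passed. Neb, the ruler of thin filament length, read 8.62, 9.06 and 10.40 on the Klf5-deleted arrays and 7.69, 8.92 and 8.15 on the controls, a difference of 1.11 (SE 0.48, adjusted p = 0.351), or 0.59 without Klf5-deleted 3. Tnnc1, the slow and cardiac troponin that binds calcium, read 9.11, 10.06 and 10.27 against 8.24, 9.35 and 8.61, a difference of 1.08 (SE 0.36, adjusted p = 0.235). Klf5-deleted 2 stood closer to Klf5-deleted 3 in Tnnc1 than it did in Neb. Tnnc2, its fast counterpart, read 8.34, 8.99 and 9.15 against 7.84, 8.55 and 8.15.

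The inhibitory and tropomyosin-binding troponins of slow and fast fibres did not divide by fibre type. Tnni1, the slow inhibitory subunit, read 9.11, 9.39 and 10.03 on the Klf5-deleted arrays and 8.24, 9.25 and 8.61 on the controls, a difference of 0.81 (SE 0.30). Tnni2, the fast one, read 8.69, 8.77 and 9.04 against 8.54, 8.90 and 8.77, a difference of 0.09 (SE 0.12). Tnnt3, the fast tropomyosin-binding subunit, differed by 0.57 (SE 0.28), and the slow Tnnt1 by 0.25 (SE 0.09). Tnnt1 was one of the members without overlap, at 10.70, 11.02 and 10.98 against 10.63, 10.69 and 10.62. A fast gene had the smaller difference in the first pair and a slow gene in the second; whether these differences differ from each other was not tested.

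Tnnt2, the cardiac troponin T that embryonic skeletal muscle also makes, was the single member with a lower mean in the Klf5-deleted bladders. It read 12.40, 12.80 and 12.78 there and 12.99, 12.89 and 12.78 in controls, a difference of -0.23 (SE 0.12, adjusted p = 0.462). The skeletal and cardiac actins, Acta1 and Actc1, had an r of 0.81 and 0.80 to the mean of the other members, against a median of 0.93. Acta1 read 11.22, 11.51 and 12.23 against 11.46, 11.84 and 10.96, and Actc1 read 12.08, 12.60 and 13.13 against 12.45, 12.53 and 12.02. For both, control 3 and not control 1 was the lowest array. The actins are also close paralogs, and whether the features separate them was not tested.

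Among the genes of the Z-disc and of energy supply, Actn2, the alpha-actinin that cross-links thin filaments, read 9.75, 10.09 and 11.43 on the Klf5-deleted arrays and 8.52, 10.17 and 9.08 on the controls. Its difference was 1.17 (SE 0.52, adjusted p = 0.369), and 0.66 without Klf5-deleted 3. Ldb3, a scaffold of the Z-disc, read 8.38, 8.53 and 9.11 against 8.51, 8.71 and 8.32. Ckm, the muscle creatine kinase, read 8.65, 8.55 and 9.14 against 8.33, 9.33 and 8.47. Control 2 was the highest array for Ckm, the single member of which this was true, and its genotype difference was 0.07 (SE 0.27).

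**Figure D4:**
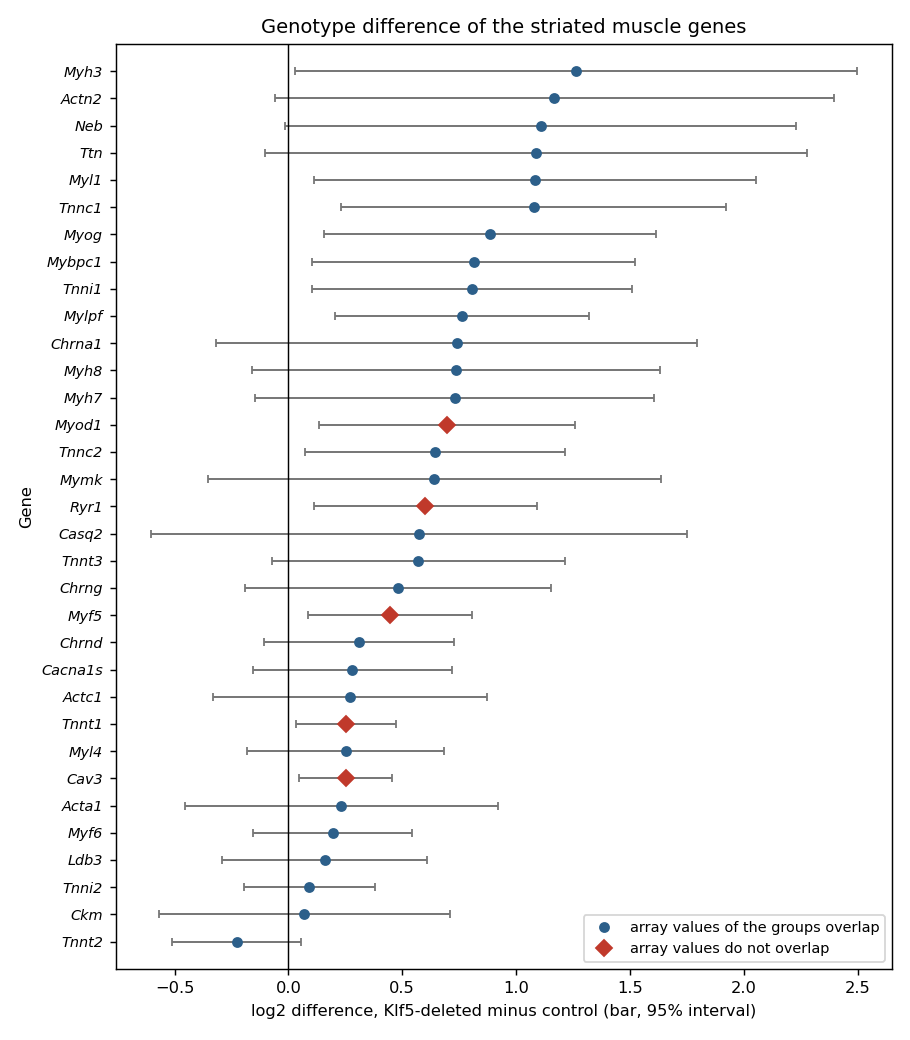
Log2 difference between Klf5-deleted and control bladders for each of the 33 striated muscle genes (points), with limma's unadjusted 95% interval (bars) and genes sorted by size. The interval lies above 0 for 13 genes, and diamonds mark the 5 genes whose array values do not overlap between groups.

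The myogenic factors were higher on average in the Klf5-deleted bladders, with a median difference of 0.64 with the fusion gene Mymk included, and none passed after adjustment. Myod1, which commits cells to muscle, read 8.53, 8.72 and 9.16 on the Klf5-deleted arrays and 7.62, 8.49 and 8.20 on the controls. Myf5, the earliest of the family to act, read 7.16, 7.26 and 7.75 against 6.91, 7.06 and 6.86. Neither gene had overlapping groups, with differences of 0.70 (SE 0.24, adjusted p = 0.247) and 0.44 (SE 0.15, adjusted p = 0.249). Myf5 was dim, with a control mean of 6.94 against array medians over genes of 8.43 to 8.50. The fit on brighter genes left Myf5 out. Myog, which drives differentiation, read 8.09, 8.60 and 8.97 against 7.06, 8.18 and 7.76, a difference of 0.89 (SE 0.31, adjusted p = 0.255). Without control 1 the differences of Myod1 and Myog were 0.46 and 0.58, and without Klf5-deleted 3 that of Myf5 was 0.26. Myog overlapped through control 2 alone, which was above Klf5-deleted 1.

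Myf6, the late member of the family, and Mymk, the membrane protein with which myoblasts fuse, differed less clearly. Myf6 read 6.90, 7.39 and 7.41 on the Klf5-deleted arrays and 7.02, 7.20 and 6.89 on the controls. Mymk read 8.51, 8.64 and 10.22 against 8.19, 8.75 and 8.51. The difference of Mymk, 0.64 (SE 0.42), fell to 0.09 without Klf5-deleted 3, so that this pool decided it.

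The acetylcholine receptor genes repeated the pattern of Mymk. Chrna1, the subunit that binds the transmitter, read 7.58, 7.59 and 9.30 on the Klf5-deleted arrays and 7.05, 7.78 and 7.42 on the controls. Chrng, the gamma subunit of the fetal receptor, read 7.33, 7.34 and 8.31 against 6.80, 7.48 and 7.25, and Chrnd, the delta subunit, read 7.17, 7.04 and 7.69 against 6.77, 7.03 and 7.17. For all 3 genes Klf5-deleted 3 was far above the rest, while the other pair of Klf5-deleted arrays lay within or close to the range of the controls. The difference of Chrna1 was 0.74 (SE 0.45, adjusted p = 0.530) and was 0.17 without Klf5-deleted 3.

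Of the genes that link the membrane to calcium release, Ryr1, the release channel, read 8.19, 8.33 and 8.94 on the Klf5-deleted arrays and 7.62, 8.13 and 7.91 on the controls. Its groups did not overlap, with a difference of 0.60 (SE 0.21, adjusted p = 0.252). Cav3, the muscle caveolin, also did not overlap, at 7.20, 7.18 and 7.45 against 6.97, 7.09 and 7.02. Cav3 was dim too, with a control mean of 7.03, and the fit on brighter genes left it out as well. Cacna1s, the voltage sensor, differed by 0.28 (SE 0.19). Casq2, the calcium buffer of slow and cardiac muscle, read 7.45, 7.37 and 9.28 against 7.27, 7.98 and 7.13, and its difference of 0.57 turned to -0.05 without Klf5-deleted 3.

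Striated muscle genes outside the 33 members showed the same order of pools in part. Of 50 such genes listed, 47 were measured. By limma 37 were higher on average and 10 lower, 0 passed the test, and 11 were higher and 2 lower at an unadjusted p of 0.05. Of all 19938 genes, 46.5% were higher on average, and 6.34% were higher and 1610 genes lower at that p. The median difference of the 47 genes was 0.18. Their mean over the list was highest on Klf5-deleted 3, at 8.46, and lowest on control 1, at 7.79. The median r between pairs was 0.57, below that of the members.

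The largest differences in this wider list were those of Myot, Klhl41 and Myoz2, a Z-disc scaffold, a protein that maintains the sarcomere and a calcineurin-binding protein of the Z-disc. Myot read 8.07, 8.53 and 9.10 on the Klf5-deleted arrays and 6.84, 7.86 and 7.18 on the controls, a difference of 1.28 (SE 0.32, adjusted p = 0.112), without overlap, and it passed without control 2, at an adjusted p of 0.0413. Klhl41 and Myoz2 differed by 1.20 (SE 0.38) and 1.17 (SE 0.39), Klhl31 by 0.75 and Smyd1, a methyltransferase of sarcomere assembly, by 0.63. Hspb7, a small heat shock protein of muscle, went the other way, at 8.40, 8.79 and 9.22 against 10.18, 9.70 and 9.48, a difference of -0.98 (SE 0.24, adjusted p = 0.105). The adult fast heavy chains Myh1, Myh2 and Myh4, which lie between Myh3 and Myh8, differed by -0.03, -0.06 and -0.14. The embryonic and perinatal genes at either end differed by 1.26 and 0.74, and the contrast between the genes was not tested. The adult genes were dim, with control means of 6.54, 7.28 and 6.66, against 8.97 for Myh3 and 7.97 for Myh8. Array medians over genes were 8.43 to 8.50. RMA is known to compress dim differences, and whether this bears on the contrast was not tested.

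In a list of 11 measured genes of muscle progenitors, which also held Mef2a and Mef2d, partners of the myogenic factors, 1 passed the test. Eya4, a co-activator of SIX-family factors, rose by 0.76 (SE 0.07, adjusted p = 0.00385), from 9.41, 9.51 and 9.58 in controls to 10.30, 10.17 and 10.32. Unlike the members, Eya4 had nearly equal values in the pools of a genotype, and it passed in all 14 alternative fits, with adjusted p from 0.000123 to 0.0368. Eya1 read 9.02, 9.33 and 9.91 against 8.21, 8.74 and 8.34, a difference of 0.99 (SE 0.23, adjusted p = 0.0962), without overlap and with the same order of pools within each genotype as the members' mean. Pax7, the marker of muscle stem cells, differed by 0.24 (SE 0.16), and Pax3 and Lbx1, which mark migrating muscle precursors, by -0.02 and -0.01. At an unadjusted p of 0.05 by limma, 5 of the 11 were higher and 1 lower, each without overlap. Of all 19938 genes, 6.34% were higher and 1610 genes lower at this level. The groups did not overlap for 8.67% of all genes in the higher direction and 20.5% in either. Besides Eya4 and Eya1, the higher genes of the 11 were Dmrt2 at 0.48, Eya2 at 0.42 and Six4 at 0.36. The lower one was Met, a receptor used by migrating precursors and by epithelia, at -0.37.

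**Figure D5:**
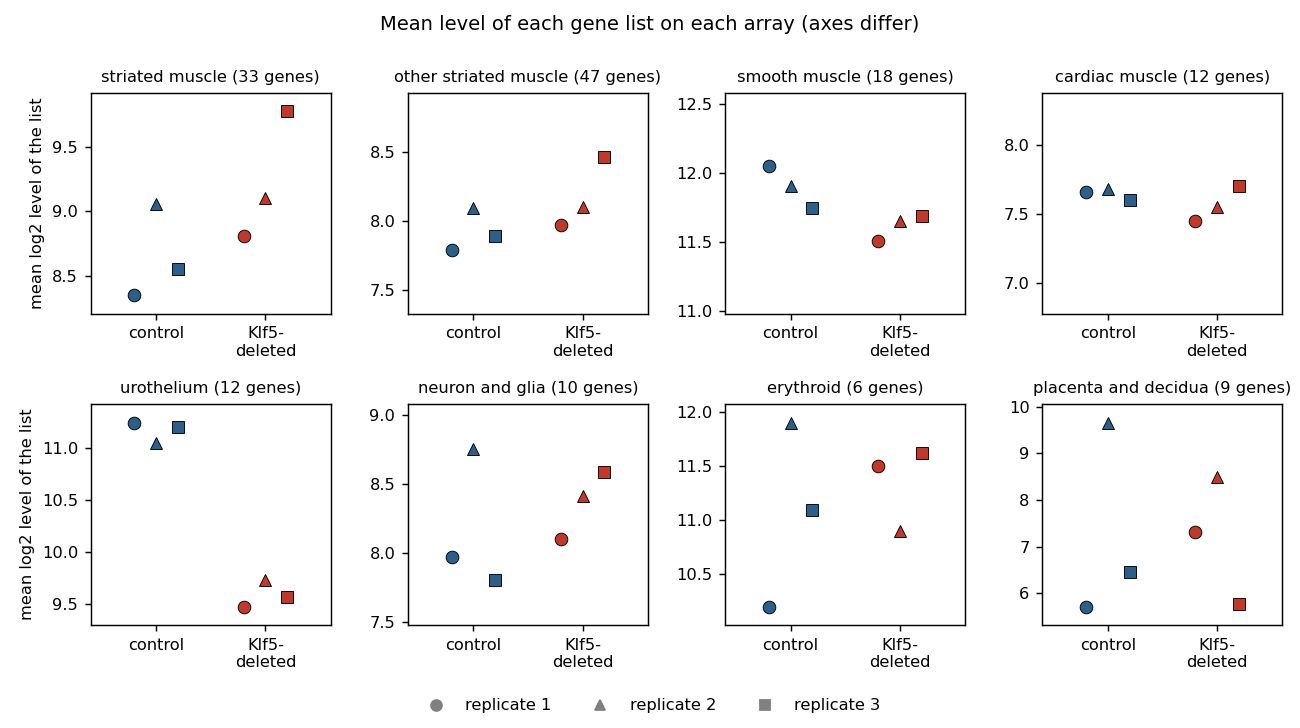
Mean log2 level of 8 gene lists on each control (blue) and Klf5-deleted (red) array, with the marker shape giving the replicate number and axes that differ between panels. Control 2 stands above the other controls for striated muscle, neuron and glia, erythroid and placental genes, while the urothelial and smooth muscle lists separate the genotypes.

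Lists for other tissues were read beside the members, since a pool can carry tissue from around the bladder. The mean of the members was 8.81, 9.10 and 9.78 on the Klf5-deleted arrays and 8.35, 9.06 and 8.55 on the controls. The 10 measured neuron and glia genes read 8.10, 8.42 and 8.59 against 7.98, 8.76 and 7.81, so that control 2 was highest and the Klf5-deleted arrays stood in the members' order. The 6 erythroid genes read 11.51, 10.90 and 11.62 against 10.20, 11.90 and 11.10, again with control 1 lowest and control 2 the highest control. In the lists of neurons and of erythroid cells 0 of 10 and 0 of 6 genes passed, and their medians differed by 0.21 and 0.23.

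The 9 placental and decidual genes had their highest mean on control 2, at 9.66, and lay between 5.71 and 8.49 on the other arrays. Klf5-deleted 3, the pool highest in striated muscle genes, was low for them at 5.77. The 12 cardiac genes lay between 7.45 and 7.70 on the Klf5-deleted and 7.60 and 7.68 on the control arrays, and the atrial hormone gene Nppa, the atrial and ventricular myosin gene Myh6 and the cardiac troponin gene Tnni3 differed by 0.01, -0.05 and -0.06. By limma 0 of the 12 passed, and at an unadjusted p of 0.05, 3 were higher and 1 lower. Of all 19938 genes, 6.34% were higher and 1610 genes lower at that p. The higher cardiac genes were Sln at 0.32, Ryr2 at 0.25 and Myl2 at 0.24. The lower one was Pln, a brake on calcium uptake that smooth muscle also makes, at -1.30 (SE 0.37, adjusted p = 0.156 by limma), without overlap. The 11 cartilage and bone genes differed by a median of 0.01, the 6 tendon genes by 0.10 and the 6 brown fat genes by -0.07. Single genes in these lists differed more. By limma Ebf2 of the brown fat list differed by 0.96 (adjusted p = 0.0968), and Tnmd of the tendon list by -0.72 (adjusted p = 0.282). Ebf2 read 7.98, 8.20 and 8.72 against 6.96, 7.65 and 7.39, the members' order of pools within each genotype. Of the genes in these lists, 1 passed, the bone matrix gene Ibsp, which fell by 0.91 (SE 0.15, adjusted p = 0.0334). Over all genes, 1.59% were lower at this level. Whether the call of Ibsp held in the alternative fits was not examined. The smooth muscle list was lower in every Klf5-deleted array than in every control, with a median difference of -0.27, and 1 of its 18 genes passed, Synpo2, at -0.38 (adjusted p = 0.0457). Leaving out any 1 array, the replicate block, median centring or housekeeping centring ended that call. Neither the neuronal, the erythroid nor the smooth muscle shift was entered into the fits, and their part in the members' values was not tested.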

How the data were processed

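Log2 expression values made with RMA (background correction, quantile normalization and probe summary) were deposited by the authors, per the submitters' processing notes. Values between 3.24 and 14.6 led to reading them as log2. Its version, the genome build and the annotation: not given in the sources used here. No feature could be called above background without scanner files, and RMA is known to compress dim differences. The number of arrays limits the precision.

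Of 35557 features, 21789 had a single symbol, and the feature with the highest mean stood for each of 19938 genes. Genotypes were compared with limma 3.58.1 in R 4.3.3 (lmFit, eBayes, two-sided) over all genes with Benjamini-Hochberg adjustment. With 3 arrays a group, the smallest two-sided p of exact permutation is 0.1. The fit was tested on simulated data. Differences are Klf5-deleted minus control. The files hold 2 groups named by the sample titles, and no batch.

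The members and lists were chosen with earlier results of these data known, and give no independent support. Named outside the members were the 6 other striated muscle genes with the largest difference, Klf5 and the 10 genes most like the members. The choice of Myh1, Myh2, Myh4, Eya4, Pax3, Pax7, Lbx1, Dmrt2, Eya2, Six4, Met, Nppa, Myh6, Tnni3, Sln, Ryr2, Myl2, Pln, Synpo2, Ibsp, Ebf2, Tnmd and of the sequences shown came after seeing values. The alternatives were other centrings and normalization, other variance models, a filter on dim genes, the mean of features, the replicate block and leaving out each array.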

Additional observations from a re-analysis of the deposited data

How the results depend on the processing

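No member passed the threshold in 13 of the 14 alternative fits, namely all but the centring on housekeeping genes, in which 20 of 33 members and 22 of 47 other striated muscle genes passed, with a median of 0.39 for the latter against 0.18. That centring rests on B2m or Pgk1 and moves every gene alike. The replicate block, with 0 of 33 members and 0 of 47 other genes past the threshold, changed no call of a member; at an unadjusted p it gave 16 members higher, against 13, while the calls over all genes fell from 395 to 110. The replicate numbers were not shown to pair the pools, as deviations from the group means over all genes correlated at 0.01, 0.03 and 0.08 for same-numbered pools. Leaving out 1 array gave 0 to 1 of the 47 other genes, the 1 being Myot without control 2. The members' median r was 0.73 without Klf5-deleted 3, 0.73 to 0.92 when 1 array was left out, and 0.74 over the 4 arrays left without Klf5-deleted 3 and control 1, a choice made after seeing the data; the cause was not tested.

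The sign turned for 5 members when 1 array was left out, 4 with differences under 0.25 and Casq2 at 0.57. Ckm ranged from -0.12 to 0.38, Tnni2 from -0.0112 to 0.17, Acta1 from -0.0539 to 0.45, Ldb3 from -0.0590 to 0.31 and Casq2 from -0.0513 to 0.91. The other 28 members kept their sign in every fit that tested them. With 3 pools a group, and members whose SE was mostly above 0.2, differences of the size measured here could not be told from the spread between pools.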

Other observations

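The genes most like the members, among 1275 non-member genes with an SD over the arrays of at least 0.3, were ranked by Pearson's r over the 6 arrays to the members' mean after subtracting group means, as a description. The first 10 were Arpp21, Emx2, Caln1, Eya1, Alpk2, Ppp1r3a, Prr32, Osr2, Il17b and Mylk4, with r from 0.99 to 1.00. By limma, none of the 10 passed the threshold over all genes, with adjusted p from 0.0647 to 0.715. Eya1 was in the progenitor list and the other 9 in no list. Ppp1r3a codes for the muscle subunit that targets a phosphatase to glycogen and Mylk4 for a myosin light chain kinase of striated muscle. Emx2 and Osr2 code for transcription factors, Emx2 being needed for the developing urogenital tract. Emx2 read 7.44, 7.54 and 7.79 on the Klf5-deleted arrays and 6.94, 7.23 and 7.05 on the controls, without overlap. Osr2 read 7.84, 8.03 and 8.91 against 7.59, 8.49 and 7.70, with control 2 above the lower pair of Klf5-deleted arrays.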
